A study of Zea mays with 12 samples.

Results

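Mo17xB73 endosperm was set against Mo17 endosperm, the tissue of its female parent. The comparison holds 6 of the 12 arrays of the series, 3 titled Mo17xB73 and 3 titled Mo17, chosen by title. Mo17xB73 is the hybrid of maize inbred Mo17 with pollen of inbred B73, and Mo17 is the inbred crossed within its own line. The labels do not name the seed parent of a hybrid, so usual crossing notation, mother first, was assumed. The other 6 arrays were 3 of inbred B73 and 3 of the reciprocal hybrid B73xMo17. Every array held RNA from a pool of 36 endosperms, drawn from 6 ears of field-grown plants 19 days after pollination, with 8 µg of total RNA labelled. Crosses were made on 3 dates, and the replicate numbers mark these dates across all genotypes.

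Endosperm is the starchy storage tissue of the cereal kernel. It forms when 2 maternal nuclei fuse with 1 sperm nucleus, so it carries 2 maternal genome doses and 1 paternal dose. Mo17xB73 and Mo17 endosperm therefore share 2 doses from a Mo17 mother, and the comparison asks what changed when the single paternal dose came from B73 in place of Mo17. Zeins are the storage proteins that fill endosperm cells, and the bZIP factor Opaque-2 (o2), with the partner factor PBF, activates many of their genes. Starch is made by a dedicated set of enzymes, sugars enter through a basal transfer layer beside the mother plant, and an aleurone covers the outside.

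Signals are array brightness values, scaled so that the mean of each array without its top and bottom 2% was equal, and they have no absolute unit. The deposited trimmed means before scaling ran from 371.8 to 410.5 on Mo17xB73 arrays and from 299.7 to 451.6 on Mo17 arrays. After scaling, levels across probe sets correlated at 0.979 to 0.988 within Mo17xB73, at 0.982 to 0.993 within Mo17 and at 0.953 to 0.965 between them. The cyclophilin 3′ to 5′ signal ratio, a sign of RNA integrity, was 1.39 to 1.69 on Mo17xB73 arrays and 1.45 to 1.70 on Mo17 arrays. The same ratio of GAPDH was less even, at 0.624 to 1.41 on Mo17xB73 arrays and 0.321 to 3.17 on Mo17 arrays, with Mo17 replicate 1 the highest and replicate 2 the lowest. On the arrays outside the comparison, the GAPDH ratio was 0.031 to 0.141 in B73 and 0.364 to 2.06 in B73xMo17. The cyclophilin ratio there was 1.92 to 2.04 in B73 and 1.72 to 2.06 in B73xMo17. The part of these ratios in the results was not tested. The gamma zein gene gz50 and the starch enzyme genes sh2 and bt2, which mark endosperm, were bright on all 6 Mo17xB73 and Mo17 arrays. The summed signal of 13 probe sets of photosynthesis genes, which mark green or maternal tissue, was 186.4 to 351.9 on Mo17xB73 arrays and 189.1 to 257.6 on Mo17 arrays, and none of the 3 bright enough to test was called with limma (1 at an unadjusted p under 0.05).

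On the Mo17 mother, paternal B73 was accompanied by more and larger gains than losses. Of 11748 probe sets tested, 1255 were called at an adjusted p under 0.05, which is 10.7% of those tested. Mo17xB73 was higher in 889 of them (7.57% of those tested) and lower in 366 (3.12%). Gains of at least 2-fold numbered 414 (3.52%), against 13 losses of that size (0.111%). Gains of at least 4-fold numbered 138 and of at least 8-fold 49, and no loss reached 4-fold. The median called gain was 0.95 and the median called loss -0.51 on the log2 scale, while the median over all tested probe sets was -0.01. This excess was one of calls. All 3 Mo17xB73 arrays lay above all 3 Mo17 arrays in 1634 probe sets (13.9%) and below them in 1730 (14.7%). Scaling to a common mean favours such a balance, so it cannot show whether the bulk of the array shifted. Without the scaling, 687 probe sets were higher and 70 lower, so that gains made up 90.8% of calls, against 70.8% with it. With the crossing date as a block, 1117 were higher and 578 lower.

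**Figure D1:**
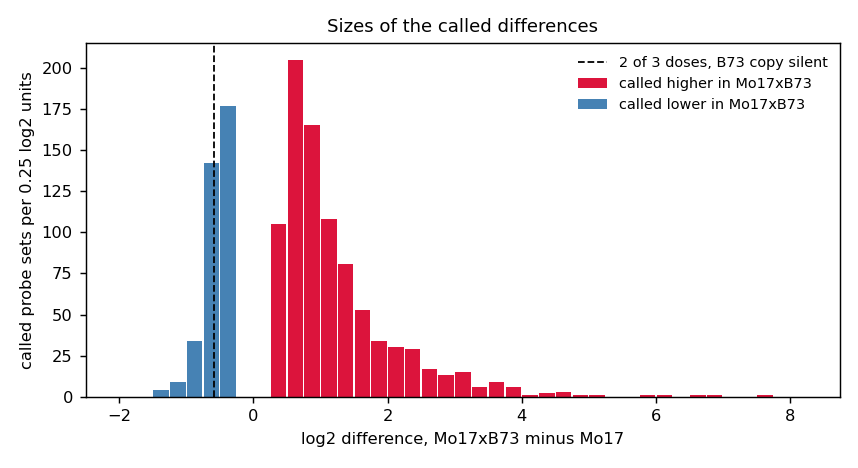
Number of called probe sets (vertical axis, per 0.25 log2 units) by log2 difference of Mo17xB73 minus Mo17 (horizontal axis), with gains in red, losses in blue and the level of 2 of 3 doses with a silent B73 copy as a dashed line at -0.585. The 366 losses end at -1.50, while the 889 gains have a tail that reaches 7.67.

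The called losses were set beside the dose-weighted mean of the parents. The median lost probe set stood at 69.7% of its Mo17 signal in Mo17xB73, with an interquartile range of 62.7% to 74.7%, at 62.7% in B73xMo17 and at 49.6% in B73. Weighting Mo17 by 2 doses and B73 by 1 gives a median of 83.2% of the Mo17 signal for these probe sets, and Mo17xB73 was under its own weighted mean in 357 of the 366. Every called loss was beyond -0.25 on the log2 scale, so the calling itself favoured a place under that mean. A departure from dose was not tested. A B73 copy with no signal at all would leave 66.7%, a log2 difference of -0.585, and 137 of the 366 were under that level. Among the gains, 116 probe sets had a Mo17 mean under 10.6, the constant added before logs, which is near the floor of the array. In these the median Mo17xB73 signal was 39.0% of that in B73 (interquartile range 30.7% to 48.8%), where the same weighting gives a median of 36.0%. Mo17xB73 was under its own weighted mean in 47 of the 116. B73xMo17, with 2 B73 doses, stood at 72.8% of B73 in the same probe sets. These medians and counts are descriptions of probe sets picked for their Mo17xB73 and Mo17 values, without a test.

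The largest gain among named genes was in dzs18, a methionine-rich delta zein. Its signal was 9934, 8769 and 10850 on the Mo17xB73 arrays, against 36.4, 20.8 and 65.4 on the Mo17 arrays, a log2 difference of 7.67 ± 0.22 (SE, adjusted p = 1.31e-11). Every Mo17xB73 array lay far above every Mo17 array. B73 averaged 16710 ± 1488 and B73xMo17 17730 ± 583 (SD, n = 3 each). The other dzs18 probe sets also rose, by 6.67, 4.62 and 1.99 on the log2 scale. Whether the parents' alleles differ in the sequence under these probes, and what part such a difference had in this or any other probe set, was not tested.

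The alpha zein gene z1C1_12 also rose, from a Mo17 level that was already bright. It read 7619, 5323 and 7312 in Mo17xB73, against 5085, 2279 and 3410 in Mo17, a log2 difference of 0.97 ± 0.22 (adjusted p = 0.0108). The Mo17xB73 arrays all lay above the Mo17 arrays, and their mean of 6751 was above the B73 mean of 6319 ± 643 (SD, n = 3). The other 5 zein genes tested, among them the alpha zeins z1C1_4, z1C1_20 and fl2 and the gamma zeins gz27 and gz50, passed no test. The gamma zein gz50, for one, read 14870, 12320 and 12830 in Mo17xB73, against 14670, 10800 and 10840 in Mo17 (adjusted p = 0.462). Mo17 replicate 1 was the brightest Mo17 array for gz50, gz27 and fl2. Without it, gz50 (adjusted p = 0.0292) and 1 probe set each of gz27 (0.0161) and fl2 (0.0415) were called higher. In all, 5 of 13 zein probe sets (2 of 7 genes) were called higher and none lower, or 38.5% higher against 7.57% of all tested, and their median log2 difference was 0.17. Of these 5, 4 were probe sets of dzs18. With limma at an unadjusted p under 0.05, 6 of the 13 were higher and 1 lower. Zein families share sequence, so a probe set may collect signal from several copies.

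Opaque-2 itself was one of the called genes. The o2 probe set Zm.3944.1.S1_at read 2254, 1189 and 1510 in Mo17xB73, against 194, 167 and 174 in Mo17, a log2 difference of 3.09 ± 0.19 (adjusted p = 3.26e-08). B73 averaged 3905 ± 752 (SD, n = 3), so the hybrid lay between its parents. A second o2 probe set, Zm.14987.1.S1_s_at, averaged 940.4 in Mo17xB73 and 713.7 in Mo17 and was not called (log2 difference 0.34, 95% interval -0.08 to 0.77, adjusted p = 0.331), so the size of the gain depends on the probe set read. The Opaque-2 heterodimerizing factor ohp1 read 340.7, 287.9 and 217.6 in Mo17xB73, against 128.4, 118.5 and 107.5 in Mo17, a rise of 1.17 ± 0.17 (adjusted p = 2.26e-04). Its relative ohp2 did not pass, with a log2 difference of 0.12 (adjusted p = 0.582). PBF read 3452, 3399 and 3541 in Mo17xB73, against 3934, 3849 and 4015 in Mo17, which also missed the threshold (log2 difference -0.18, adjusted p = 0.137). Of 11 probe sets for 7 endosperm transcription factors, these 2 were higher with limma (18.2%, against 7.57% of all tested) and none was lower. At an unadjusted p under 0.05, 2 were higher and 1 lower. With the crossing date as a block, 2 were called higher and 1 lower.

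**Figure D2:**
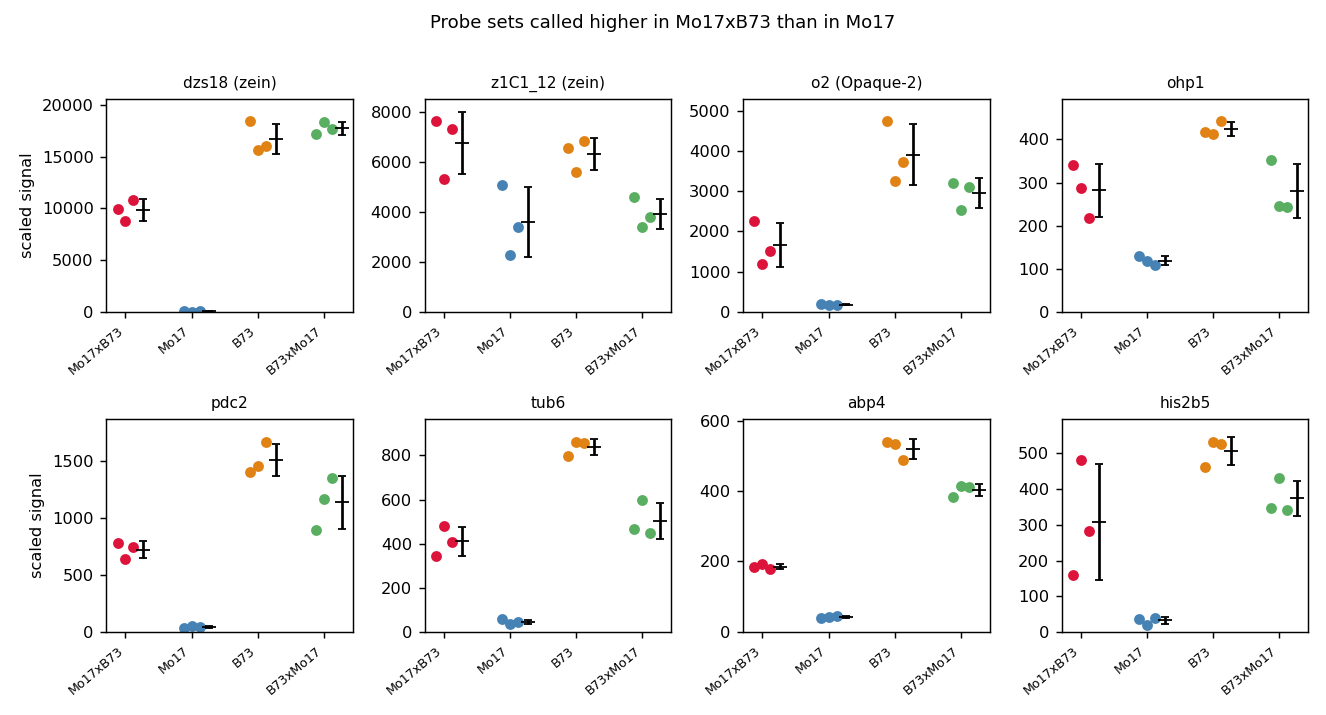
Scaled signal (vertical axes, from 0, a scale of its own in each panel) of 8 probe sets called higher in Mo17xB73 than in Mo17, by genotype (horizontal axes). Points are single arrays, and the bars beside them show the mean and SD of 3 arrays. Mo17xB73 points lie above all Mo17 points in every panel.

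Outside the storage proteins, the named gains were in genes of many functions. One probe set of pdc2, a pyruvate decarboxylase of the fermentation pathway, read 782, 639 and 748 in Mo17xB73, against 38.1, 55.8 and 43.4 in Mo17 (log2 difference 3.71 ± 0.15, adjusted p = 5.42e-10). Another pdc2 probe set, Zm.14518.1.S1_at, was bright in Mo17 and dark in B73. It read 1294, 954 and 1255 in Mo17xB73 and 1251, 1524 and 1446 in Mo17, with no call (adjusted p = 0.455), and averaged 5.56 in B73. A further one, at 0.19, was not called either, so the pdc2 call is of one probe set only. HMT-2, a homocysteine methyltransferase, was close to the array floor in Mo17. Its signal was 131, 142 and 139 in Mo17xB73, against 14.6, 22.4 and 9.86 in Mo17 (log2 difference 2.53 ± 0.17, adjusted p = 6.07e-08). It was the only call among 5 amino acid metabolism probe sets (20%, against 7.57% higher of all tested).

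The phospholipid transfer protein gene PLTP, which is listed as an aleurone marker here, was 730, 412 and 888 in Mo17xB73, against 36.7, 70.8 and 35.9 in Mo17 (log2 difference 3.54 ± 0.66, adjusted p = 0.00225). It was uneven in B73, at 905.7 ± 847.7 (SD, n = 3). The remaining aleurone genes tested passed no test, although the summed aleurone signal was higher on all Mo17xB73 arrays (3621 to 4119) than on Mo17 arrays (2474 to 2719). Part of that sum is PLTP itself, and the part of aleurone tissue in the PLTP call was not tested. In tissue pools of this kind, more cells of a type and more RNA per cell cannot be told apart. The dek1 gene, which is required for aleurone fate, had a log2 difference of -0.45 that missed the threshold (adjusted p = 0.0693) and passed with the crossing date as a block (0.0408). In all, 2 of 7 aleurone probe sets were called higher, both of PLTP (28.6%, against 7.57% of all tested).

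Cytoskeleton and cell wall genes held 9 called gains and 2 called losses among 44 probe sets, or 20.5% higher and 4.55% lower, against 7.57% and 3.12% of all tested. The gains came from 5 genes and the losses from 1. The beta tubulin gene tub6 rose most in one probe set, at 346, 478 and 408 in Mo17xB73, against 56.4, 35.1 and 44.4 in Mo17 (log2 difference 2.92 ± 0.16, adjusted p = 9.40e-09). A pair of further tub6 probe sets rose by 1.68 and 0.79, and another did not pass (-0.25, adjusted p = 0.467). HRGP, a hydroxyproline-rich wall glycoprotein, was 97.6, 121 and 110 in Mo17xB73, against 16.7, 14.4 and 6.02 in Mo17 (2.41 ± 0.24, adjusted p = 7.10e-06). Its Mo17xB73 mean was 22.5% of the B73 mean of 486.4. The cellulose synthase gene CesA-4 rose by 1.79 and 1.32 in its probe sets, and one probe set of the beta tubulin gene tub5 by 1.08, each with all Mo17xB73 arrays above all Mo17 arrays. The expansin gene EXPA5 rose by 1.09 (adjusted p = 0.0144), a call that ended without Mo17xB73 replicate 3 (adjusted p = 0.0520) or Mo17 replicate 3 (0.0568).

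Hormone genes contributed several further gains. The auxin-binding protein gene abp4 had the tightest values, at 185, 192 and 179 in Mo17xB73, against 40.5, 42.6 and 45.8 in Mo17 (log2 difference 1.87 ± 0.10, adjusted p = 1.15e-08). Allene oxide cyclase (aoc1), which acts in jasmonate synthesis, rose in both of its probe sets, by 1.19 ± 0.18 and 0.72 ± 0.13. The ethylene-forming oxidase acco20 rose by 1.17 ± 0.23 (adjusted p = 0.00401). Opposite to aoc1, the jasmonate pathway reductase opr8 fell by 0.57 (adjusted p = 0.0217). Allene oxide synthase (aos1) and the reductase opr1 read dimmer as well, at -0.90 and -0.67, and passed with the crossing date as a block (adjusted p = 0.0405 and 0.0188, against 0.101 and 0.0544 without it). Without Mo17 replicate 1, opr1 passed as well (0.00156). The list as a whole gave 4 higher and 1 lower of 15 probe sets (26.7% and 6.67%, against 7.57% and 3.12% of all tested).

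Single genes of other families rose as well. His2b5, a histone H2B, was 161, 482 and 283 in Mo17xB73, against 37.3, 20.3 and 38.7 in Mo17 (2.80 ± 0.29, adjusted p = 8.08e-06), and the replicative helicase gene MCM6 rose by 0.70 ± 0.16 in 1 of its 3 tested probe sets. In the histone and replication list, 3 of 16 probe sets were higher (18.8%, against 7.57% of all tested) and none lower. At an unadjusted p under 0.05, 3 were higher and 1 lower. The plasma membrane aquaporin pip2-5 rose by 1.95 ± 0.26, the cap-binding factor eif7 by 1.89 ± 0.15 and the calcium sensor calmodulin by 1.78 ± 0.21. For pip2-5, Mo17 averaged 8.61, near the floor of the array. Its log2 difference ran from 1.22 to 2.77 over other scalings, constants, filters and fits. Genes annotated MRP2 and GTPase rose by 3.58 ± 0.24 and 1.94 ± 0.13. A second tested probe set of eif7 (log2 difference -0.41, adjusted p = 0.127) and of calmodulin (0.50, adjusted p = 0.192) was not called.

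Smaller gains were spread over stress and carbon genes. One probe set of the glutathione transferase gst31 rose by 1.07 ± 0.18, while its other 3 ranged from -0.38 to -0.29 and passed no test. One probe set of pdk1, the pyruvate orthophosphate dikinase gene, rose by 0.67 ± 0.12 (adjusted p = 0.00225), and the other 3 tested lay between -0.04 and 0.08. The heat shock genes hsp70-5 and hsp18c rose by 0.47 and 0.93, and the methyl-binding protein gene mbd108 and ribosomal protein gene rps13 by 0.43 and 0.42. In hsp70-5 the other tested probe sets, at 0.14 and 0.11, were not called. These last 4 calls were close to the threshold. Each ended without Mo17 replicate 2, and over every array whose removal ended one of them, the adjusted p was 0.0538 to 0.20. Heat shock proteins gave 2 higher and none lower of 10 probe sets (20% higher, against 7.57% of all tested). Ribosomal proteins gave 1 higher and 1 lower of 27 (3.7% each), and chromatin genes 1 and 1 of 54 (1.85% each). The higher shares of both were under the 7.57% of all tested, and the lower shares stood beside 3.12%.

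The called losses were smaller and less steady than the gains. Of the 861 tested probe sets with a gene name, 66 were higher (7.67%) and 27 lower (3.14%), close to the shares over all tested. With the values as deposited, 48 of the 66 and 3 of the 27 were called in the same direction. CAF1 fell most, to 206, 162 and 151 in Mo17xB73, against 482, 404 and 409 in Mo17 (log2 difference -1.28 ± 0.19, adjusted p = 3.03e-04). No arrays overlapped, and its B73 mean was 24.9 ± 8.17 (SD, n = 3). The gamma tubulin gene tubg1, whose product nucleates microtubules, fell to 188, 234 and 204 in Mo17xB73, against 347, 358 and 346 in Mo17 (-0.73 ± 0.14, adjusted p = 0.00364). SRP1A fell to 255, 212 and 254 in Mo17xB73, against 383, 430 and 385 in Mo17 (-0.71 ± 0.12, adjusted p = 0.00108). CAF1, this tubg1 probe set and SRP1A were the calls kept with the values as deposited.

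Further named losses lay between -0.76 and -0.30. The MAP kinase gene mpk2 read 367, 327 and 306 in Mo17xB73, against 429, 524 and 495 in Mo17 (-0.52 ± 0.11, adjusted p = 0.00610). Another mpk2 probe set, at -0.11, was not called. The superoxide dismutase gene Sod4A read 568, 549 and 624 in Mo17xB73, against 728, 782 and 930 in Mo17 (-0.47 ± 0.10, adjusted p = 0.00698), and the SET-domain gene set105 was 1252, 1105 and 1155, against 1698, 1551 and 1507 (-0.43 ± 0.09, adjusted p = 0.00561). These 3 calls held whichever array was left out.

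Other losses depended on single arrays. They were in the glutathione transferase gst10, the ER folding enzyme pdi4, the MADS-box factor MADS11, opr8, the aldehyde dehydrogenase AMADH2, the pyrimidine synthesis enzyme UMPS, the ribosomal protein rpp3, and the genes fae1 and ACK2. Each of these 9 calls ended without Mo17 replicate 2 and without 2 to 5 of the other arrays, and the adjusted p was then 0.0501 to 0.174. In the ER folding list, pdi4 was the only call among 24 probe sets (4.17% lower, against 3.12% of all tested), 7 of which had an unadjusted p under 0.05. Its second tested probe set averaged 233.7 in Mo17xB73 and 344.4 in Mo17 and did not pass (adjusted p = 0.184). The glutathione transferase and antioxidant list gave 2 higher and 3 lower of 31 probe sets, and fermentation and central carbon genes 3 and 3 of 37. These were 6.45% and 9.68% of the first list and 8.11% each way of the second, against 7.57% higher and 3.12% lower of all tested.

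**Figure D3:**
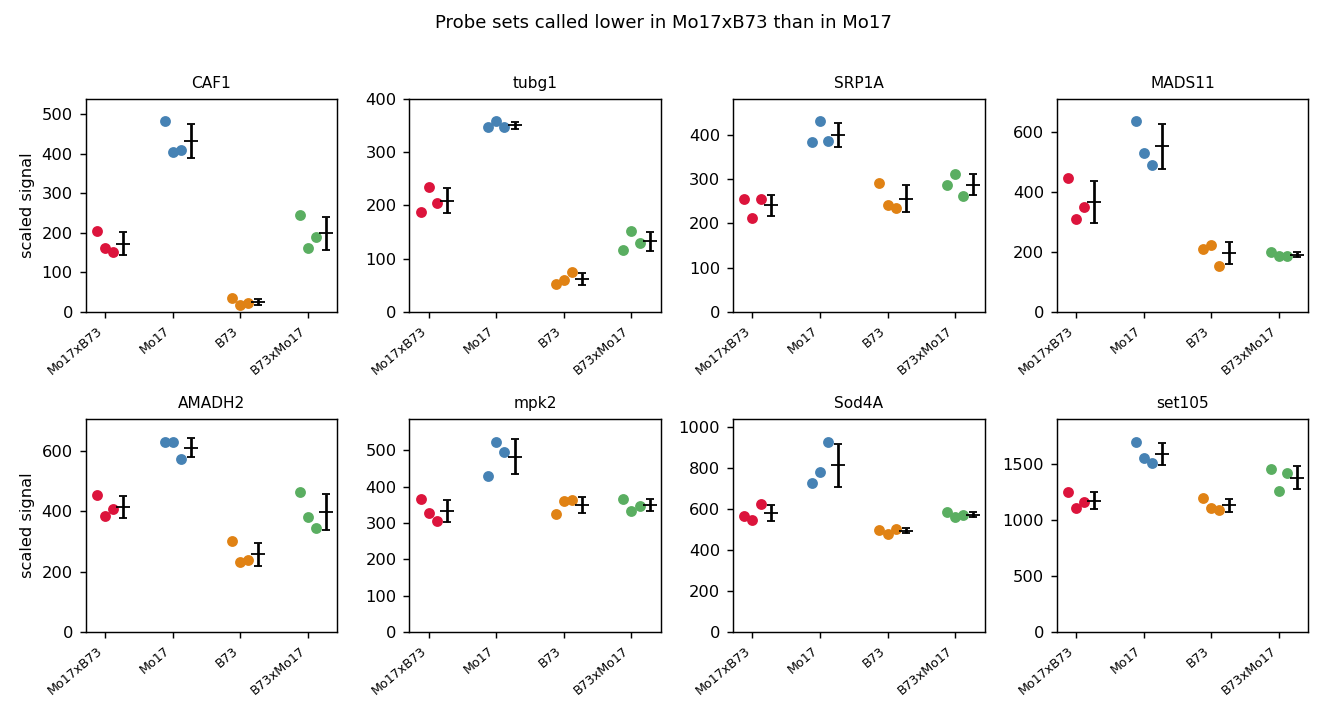
Scaled signal (vertical axes, from 0, a scale of its own in each panel) of 8 probe sets called lower in Mo17xB73 than in Mo17, by genotype (horizontal axes). Points are single arrays, and the bars beside them show the mean and SD of 3 arrays. Mo17xB73 points lie below all Mo17 points in every panel.

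Starch synthesis genes gave no call. None of 25 probe sets for 21 genes passed in either direction with limma, 4 had an unadjusted p under 0.05, all of them higher, and their median log2 difference was 0.04, although 3 had all Mo17xB73 arrays above all Mo17 arrays and 3 had them below. Shrunken-2 (sh2) and brittle-2 (bt2), the ADP-glucose pyrophosphorylase subunits, differed by 0.03 (95% interval -0.13 to 0.20, adjusted p = 0.851) in the bright sh2 probe set and by -0.04 (-0.28 to 0.20, adjusted p = 0.883). The sucrose synthase sh1, the granule-bound starch synthase wx1 and the transporter bt1 lay between -0.15 and 0.19, and wx1 passed without Mo17 replicate 1 (adjusted p = 0.0199, against 0.177 with it). With the crossing date as a block, the sucrose phosphate synthase gene sps1 passed (adjusted p = 0.0303, against 0.0702 without it), as it did without Mo17 replicate 1 (0.0462), with a log2 difference of 0.57.

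A few of these genes differed widely between the inbreds and yet showed no call here. The starch synthase gene zSSIIa read 2314, 3915 and 3284 in Mo17xB73, against 2991, 2704 and 3265 in Mo17, while B73 averaged 364 ± 205 (SD, n = 3). The log2 difference was 0.06, with a 95% interval of -0.62 to 0.73 (adjusted p = 0.948). Sucrose synthase sus1 was 1553, 1763 and 1712 in Mo17xB73, against 1562, 1700 and 1598 in Mo17, with a B73 mean of 418.6 ± 270.6 (difference 0.05, interval -0.81 to 0.90, adjusted p = 0.968). The cell wall invertase gene mn1 was 344, 213 and 276 in Mo17xB73, against 269, 187 and 307 in Mo17, with a B73 mean of 46.1 ± 26.4 (difference 0.13, interval -0.66 to 0.91, adjusted p = 0.890). In all 3, the Mo17xB73 and Mo17 arrays overlapped. The intervals include -0.585, the difference 2 of 3 doses would give if the B73 copy gave no signal. Their width rests on a spread pooled over every genotype in the fit, B73 among them, and not on the compared arrays alone. In sus1 the B73 arrays were uneven (418.6 ± 270.6), while the Mo17xB73 and Mo17 arrays all lay between 1553 and 1763. Whether -0.585 lies outside the spread of the compared arrays alone was not tested.

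Basal transfer layer genes gave no call, but their median log2 difference was 0.35. All 10 tested probe sets were brighter on average in Mo17xB73, 3 of them at an unadjusted p under 0.05, and none was called with limma. Every Mo17xB73 array lay above every Mo17 array in 3 of the 10, and below in none. The summed signal of the 12 probe sets listed was 12560 to 13780 on Mo17xB73 arrays and 9218 to 12970 on Mo17 arrays, so the groups overlapped. It was 2751 to 3847 on B73 arrays. The maternally expressed gene family member meg2 read 3374, 3853 and 3698 in Mo17xB73, against 2475, 2581 and 3241 in Mo17 (log2 difference 0.40, 95% interval 0.01 to 0.80, adjusted p = 0.20). The antifungal peptide gene bap2 was 1219, 1437 and 1605 in Mo17xB73, against 907, 1010 and 1306 in Mo17 (0.41, interval -0.003 to 0.82, adjusted p = 0.219). BET1 read 1866, 2076 and 2219 in Mo17xB73, against 1407, 1667 and 2439 in Mo17 (0.19, adjusted p = 0.685). B73 averaged 635.6, 226.4 and 581.5 in these 3 probe sets. A further member, betl3, passed only without Mo17 replicate 3 (adjusted p = 0.0221, against 0.0865 with it).

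**Figure D4:**
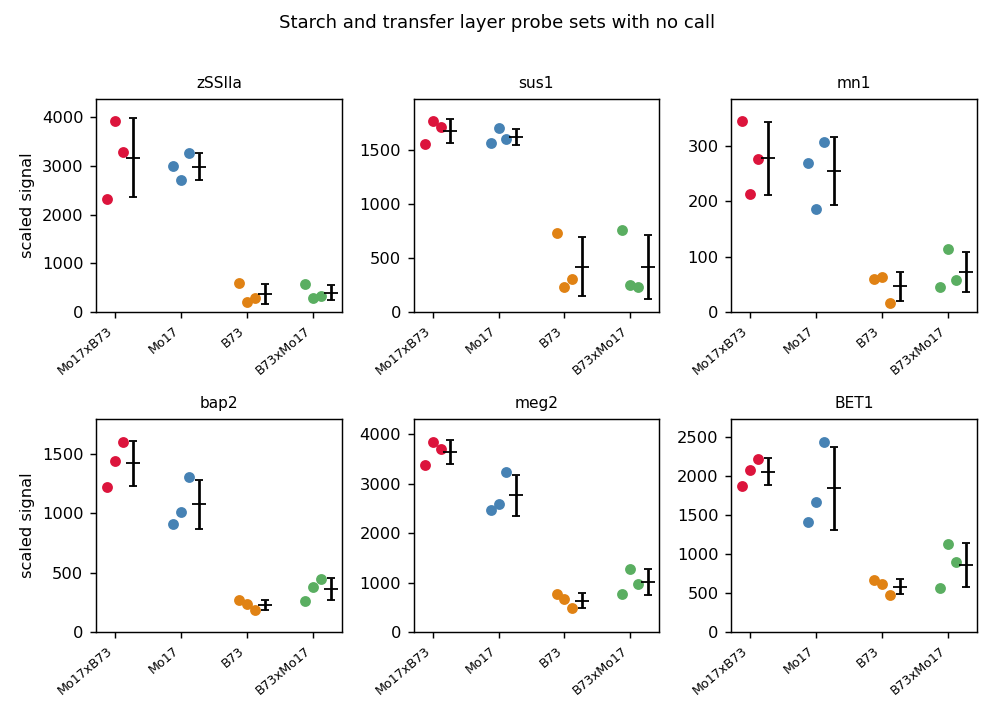
Scaled signal (vertical axes, from 0, a scale of its own in each panel) of 6 starch and transfer layer probe sets with no call between Mo17xB73 and Mo17, by genotype (horizontal axes). Points are single arrays, and the bars beside them show the mean and SD of 3 arrays. Mo17xB73 points overlap Mo17 points in each panel except that of meg2, where they all lie above, and B73 is dimmer.

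Embryo markers, which would reveal embryo tissue in the pools, summed to 2165 to 2829 on Mo17xB73 arrays and 1950 to 2295 on Mo17 arrays. None of the 7 probe sets tested was called with limma (1 at an unadjusted p under 0.05), and the globulin gene glb1 and oleosin gene ole1 differed by 0.39 (adjusted p = 0.708) and 0.28 (adjusted p = 0.754). Genes reported as imprinted in maize, of which one parental copy is preferentially expressed in endosperm, gave no call among 9 probe sets with limma (1 at an unadjusted p under 0.05). The Polycomb genes mez1 and fie1 were at 605.2 and 690.8 on average in Mo17xB73, against 712.5 and 830.0 in Mo17, with log2 differences of -0.23 (95% interval -0.49 to 0.03) and -0.26 (-0.55 to 0.03). The DNA methyltransferase gene dmt101 passed with the crossing date as a block (-0.35, adjusted p = 0.0186, against 0.0871 without it) and without Mo17xB73 replicate 2 (0.0461). None of the 6 defence probe sets was called either, with 3 at an unadjusted p under 0.05.

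The same exchange of paternal genomes could be read on the other mother. B73 endosperm against B73xMo17 endosperm also sets paternal B73 against paternal Mo17, here with 2 doses from a B73 mother, and it shares no array with the comparison above, only the crossing dates. Of all tested, 988 probe sets (8.41%) were called. In B73, 313 were higher (2.66% of those tested) and 675 lower (5.75%) than in B73xMo17. Losses thus outnumbered gains on the B73 mother, the reverse of the balance on the Mo17 mother. For the probe sets called on the Mo17 mother, directions were mostly shared. Of the 889 gains in Mo17xB73, 796 (89.5%) were also brighter in B73 than in B73xMo17, and of the 366 losses 330 (90.2%) were dimmer, where 48.0% of all tested probe sets were brighter. The called gains that were also called gains there numbered 186, with 5 called the opposite way, and the called losses 160, with 1 the opposite way. Sizes often differed on the log2 scale. On that scale the same gap in signal is a larger difference at a low level than at a high one, and the part of this was not tested. The difference between both exchanges, tested in the fit, passed for 494 probe sets (4.2%), of which 472 (4.02%) were more positive on the Mo17 mother and 22 (0.187%) more positive on the B73 mother. It passed for 299 of the 889 gains, 297 of them more positive on the Mo17 mother. It passed for 51 of the 366 losses, of which 10 were deeper on the Mo17 mother and 41 on the B73 mother. These calls were picked by their values on the Mo17 mother, and differences in signal can rank the other way. MRP2, for one, had 307.7 in Mo17xB73 and 17.9 in Mo17, against 1125 in B73 and 455.5 in B73xMo17.

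Among named calls, 55 of 66 gains had the same sign on the B73 mother and 26 passed the test of the difference. For dzs18 the B73 mother showed none of the gain, with means of 16710 in B73 and 17730 in B73xMo17 (log2 difference -0.09). The o2 probe set Zm.3944.1.S1_at differed by 0.40 there and the pdc2 probe set Zm.10317.1.S1_at by 0.42, against 3.09 and 3.71 on the Mo17 mother. MRP2 (1.28) and calmodulin (1.18) were among those also called higher in B73 than in B73xMo17. The losses of tubg1 (-0.98) and AMADH2 (-0.61) were also called on the B73 mother, and the log2 difference of CAF1 was more negative there, at -2.57. In signal, CAF1 averaged 24.9 in B73 and 198 in B73xMo17, beside 172.7 in Mo17xB73 and 431.7 in Mo17, a wider gap on the Mo17 mother. Of the named losses, 22 of 27 had the same sign and 3 passed the test of the difference.

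**Figure D5:**
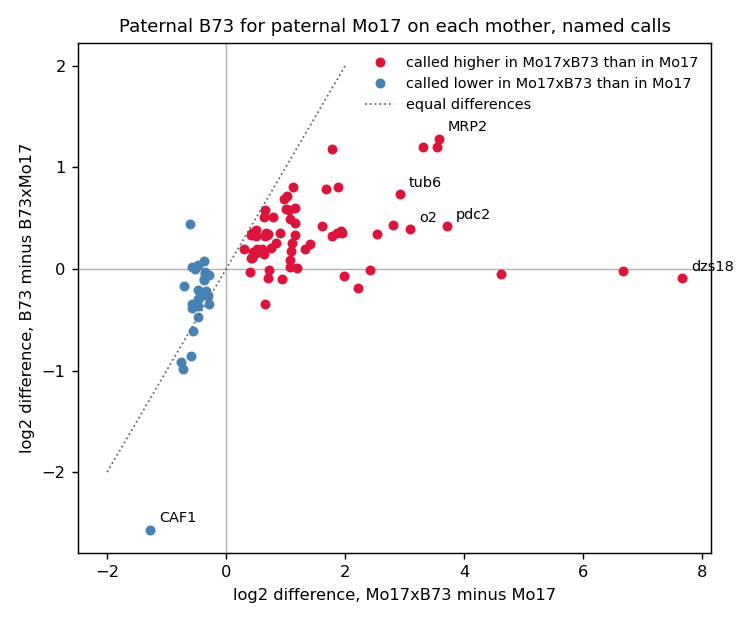
Log2 difference of B73 minus B73xMo17 (vertical axis) against log2 difference of Mo17xB73 minus Mo17 (horizontal axis) for the 93 named probe sets called between Mo17xB73 and Mo17, gains in red and losses in blue, with equal differences on the dotted line. Most points keep their sign, and large gains on the Mo17 mother have smaller differences on the vertical axis. The points were picked by their horizontal values.

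Most of the array has no gene name, and the largest unnamed changes were in 3 probe sets nearly dark in Mo17. Zm.15394.1.S1_at read 2069, 1123 and 1839 in Mo17xB73, against 4.83, 2.60 and 3.79 in Mo17, a log2 difference of 6.84 ± 0.26. Zm.15876.1.A1_at and Zm.9703.1.A1_at rose by 6.18 ± 0.20 and 5.91 ± 0.21. The deepest unnamed losses were smaller by far. Zm.2137.1.S1_at read 28.1, 29.6 and 20.8 in Mo17xB73, against 67.0, 97.2 and 120 in Mo17 (-1.50 ± 0.27, adjusted p = 0.00172). Zm.10507.1.S1_at read 1021, 830 and 1222 in Mo17xB73, against 2803, 2285 and 3111 in Mo17 (-1.41 ± 0.15, adjusted p = 9.74e-06). Zm.11651.1.A1_at read 9.73, 17.1 and 1.20 in Mo17xB73, against 36.3, 31.1 and 46.4 in Mo17 (-1.36 ± 0.30). These Mo17xB73 values are near the floor of the array. Over other scalings, constants, filters and fits, the log2 difference ran from -2.17 to -0.78.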

How the data were processed

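RNA of maize endosperm was hybridised to single-colour Affymetrix arrays, 3 for each of 4 genotypes. The authors deposited intensity values, a linear signal for every probe set, and the submitters' processing notes name MAS5 as their source. Its version, scaling target and detection calls were not used here. Of 17734 probe sets, 113 were array controls and were set aside. Arrays were brought to one trimmed mean (2% removed at either end). The dimmest 33.3% of probe sets, by mean over all 12 arrays, were dropped, and 11748 were tested as log2(signal + 10.6). The added constant was the 20th percentile of all values, and it makes differences of dim probe sets look smaller. The model was fitted in limma 3.58.1 under R 4.3.3 (lmFit, then eBayes with a mean-variance trend) to every genotype at once, on 8 residual degrees of freedom (14.1 after moderation). Tests were two-sided, adjusted by Benjamini-Hochberg over all tested, and called under 0.05. An error after ± is the SE of a difference unless marked SD. The number of arrays limits precision, with a median SE of 0.15 for a difference.

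Replicates are separate pools from separate crossing dates. The labels give each replicate number a crossing date common to all genotypes, which pairs the samples. Deviations correlated at 0.0996 to 0.355 between same-numbered Mo17xB73 and Mo17 arrays. Over all pairs of genotypes, same-numbered arrays gave 0.0472 to 0.408 and arrays with unlike numbers -0.314 to 0.154. The date block was run as an alternative beside other scalings, constants, filters and fits and each array left out. The script was checked on simulated data.

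Gene names came from the platform annotation, updated through the NCBI gene table of assembly Zm-B73-REFERENCE-NAM-5.0. The annotation gave 1 gene for 1452 probe sets, several for 1 and none for 16281, and 861 tested probe sets had a gene name. Of 83 named genes with a call, 31 had several tested probe sets, and in 25 of these some were not called. Probe sets ending in s_at or x_at can bind related transcripts. Genes are named by a rule: the 14 highest and 14 lowest called named genes that moved the same way in 3 same-numbered pairs, the 2 called genes of each list with the smallest p, the 3 highest and 3 lowest unnamed probe sets, and the 3 genes with the smallest p for the difference between mothers in each direction. Members of the zein, transcription factor, starch, transfer layer, embryo, green tissue and imprinted lists may be given whether called or not. Tub5, CesA-4, EXPA5, acco20, aos1, opr1 and dek1 were named after their values were seen. The comparison, its members and the 19 gene lists were chosen with earlier results of these data known. A named loss that meets the rule for named genes is not reported here.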

Additional observations from a re-analysis of the deposited data

Results flagged for a closer look

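On the log2 scale, the exchange of paternal Mo17 for paternal B73 differed between mothers in 23 of the probe sets named under the rule. The test was limma's test of the difference (adjusted p under 0.05), which passed for 4.2% of all tested. Some of the 23 were picked by this same test and others by large values on the Mo17 mother. Their number is therefore no result of its own. The same gap in signal is a larger log2 difference at a low level than at a high one. The part of this in the values below was not tested. Values here are the log2 difference of Mo17xB73 minus Mo17, less that of B73 minus B73xMo17. The delta zein dzs18 stood at 7.76, Opaque-2 (o2) at 2.70, and pdc2 at 3.29 in Zm.10317.1.S1_at and 4.85 in Zm.14518.1.S1_at. MRP2 stood at 2.29, tub6 at 2.19, his2b5 at 2.37, HMT-2 at 2.18, HRGP at 2.43 and pip2-5 at 1.60. GTPase stood at 1.56, eif7 at 1.08, abp4 at 1.51, gst31 at 0.98 and aoc1 at 1.18. CAF1 stood at 1.29, since its log2 difference was less negative on the Mo17 mother, although its gap in signal was wider there. The unnamed Zm.15394.1.S1_at, Zm.15876.1.A1_at and Zm.9703.1.A1_at stood at 4.95, 5.58 and 5.78.

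In rpl39, a ribosomal protein gene, the difference was 2.64. Its probe set Zm.16508.1.S1_at read 4623, 5308 and 4657 in Mo17xB73, against 5551, 5649 and 5857 in Mo17, while B73 averaged 518.1 ± 39.96 and B73xMo17 3850 ± 463 (SD, n = 3 each). The differences that were more positive on the B73 mother were -0.72 in ANT2, a mitochondrial nucleotide carrier, -0.75 in fer1, an iron-storing ferritin, and -1.04 in pdi4. In fer1, Mo17xB73 minus Mo17 was -0.19, which was not called, and B73 minus B73xMo17 was 0.56.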

How the results depend on the processing

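No call of a named result reversed under any alternative, and with the crossing date as a block all 1255 calls were kept. With the values as deposited, 757 probe sets were called between Mo17xB73 and Mo17, 70 of them lower, and 718 calls (57.2%) were kept. The block gave 578 lower. Leaving out 1 array gave 802 to 1356 calls and 137 to 353 lower, fewest without Mo17 replicate 2, and 236, 188 and 180 lower without Mo17xB73 replicate 1, Mo17xB73 replicate 3 and Mo17 replicate 3. For B73 against B73xMo17, the deposited values gave 579 calls, 87 of them higher, the block gave 511 higher, and leaving out 1 array gave 560 to 797 calls, 119 to 255 higher and 441 to 599 lower. The difference between mothers was more positive on the B73 mother in 3 probe sets with deposited values, 45 with the block, 13 without the mean-variance trend and 7 to 35 with 1 array left out. No other alternative moved these counts by over 1.5 times. Among named results and list members, the block ended no call and added 13. The causes were not tested. Precision is set by 3 pools per genotype from a single season.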
